A study of Caenorhabditis elegans with 12 samples.

Results

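The genes described are the classical neurotransmitter receptor genes of *Caenorhabditis elegans*, taken as the rows of the gene table whose symbol is acr, lgc, glr, nmr, mgl, avr, gar, gbb, dop, ser, tyra, octr, mod, glc or deg followed by a number. This symbol rule found 118 of 21882 genes. It holds 92 subunits of ligand-gated channels and 24 G protein-coupled receptors. It also takes in 2 genes that are not receptors, namely *mod-5*, the serotonin transporter, and *deg-1*, a degenerin channel. RNA was sequenced from whole mid-L4 larvae in 3 groups of 4 samples, each of about 1000 animals from a separate egg lay, all grown on HT115 bacteria with the L4440 vector. The rescue group carried *raga-1(ok386)* and an extrachromosomal array in which the pan-neuronal *rab-3* promoter drives *raga-1* cDNA, followed by an SL2 sequence, mCherry and the *unc-54* 3′ UTR. The mutant group carried *raga-1(ok386)* alone, and the wild type group was N2. *raga-1* encodes the RagA GTPase that activates TORC1. Rescue animals were picked under a fluorescence microscope while the others were washed off plates, so that handling and strain cannot be told apart.

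Fast transmission in the worm runs through channels that the transmitter itself opens, and *C. elegans* has a large set of Cys-loop subunits for acetylcholine, GABA, glutamate, serotonin, tyramine and dopamine. Slower modulation runs through G protein-coupled receptors for the same transmitters. Many of these genes are used in a few neurons or muscles only.

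Total estimated counts per sample lay between 24724610 and 31410363 in rescue, between 20320091 and 35619305 in the mutant and between 14287510 and 26701924 in wild type. Levels are given as CPM, counts relative to the TMM-scaled library size, and 3 counts correspond to 0.0851 to 0.217 CPM depending on the sample. The *raga-1* gene itself lay between 805 and 891.3 CPM in rescue, between 1.42 and 1.76 CPM in the mutant and between 61.8 and 70.2 CPM in wild type. The wild type samples were less alike than those of the other groups, with a mean root mean square log2 distance between samples of 0.348 in rescue, 0.367 in the mutant and 0.643 in wild type. Wild type replicates 1 and 3 stood apart from replicates 2 and 4. In bulk RNA, fewer cells of a type and less RNA per cell cannot be told apart.

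Most of these genes were weakly expressed. Per length, as TPM (the level after division by the exon length) averaged over the 12 samples, the median of the 118 genes was 1.17, and 51 of them lay below 1 TPM. Only 6 reached 10 TPM, and 5 of those are Cys-loop subunits of the lgc family: *lgc-21* at 96.9 TPM, *lgc-22* at 56.5 TPM, *lgc-27* at 32.0 TPM, *lgc-34* at 29.4 TPM and *lgc-45* at 10.0 TPM. The other one was *glc-1*, an alpha subunit of the glutamate-gated chloride channels that ivermectin opens, at 14.6 TPM. The G protein-coupled receptor with the highest level per length was *gbb-2*, a subunit of the GABA-B receptor, at 9.17 TPM.

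**Figure D1:**
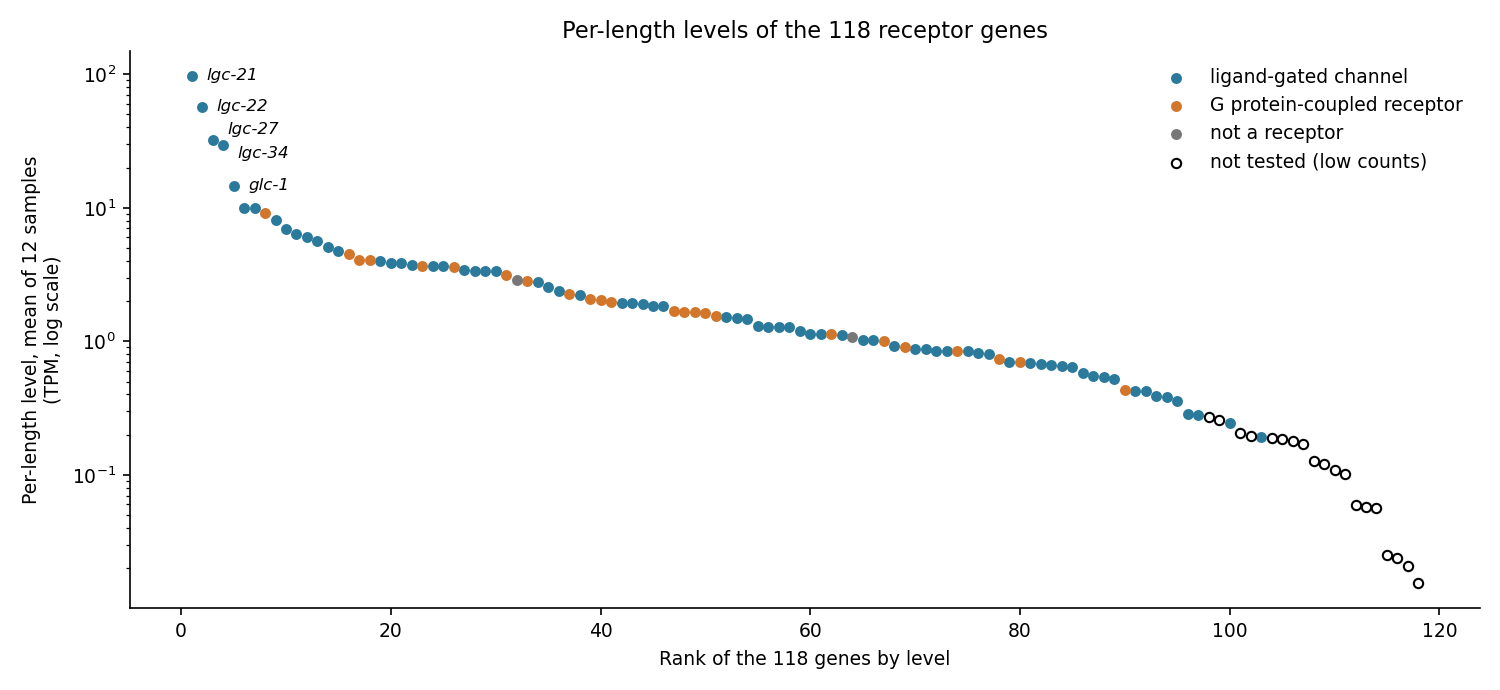
Level per length (TPM, mean of 12 samples, log axis) of each of the 118 genes against its rank. Filled points are the genes tested, coloured by class, and open points are the 19 genes with counts too low to test. A group of lgc genes and *glc-1* stands above a long, even decline, and the genes not tested lie at its low end.

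In the other classes the leading genes per length lay lower. They were *acr-8* at 3.64 TPM, *acr-16* at 3.39 TPM, *deg-3* at 3.87 TPM and *acr-2* at 1.51 TPM among nicotinic subunits, where ACR-16 forms the levamisole-insensitive receptor of muscle, DEG-3 forms a choline-gated channel with DES-2, and ACR-2 acts in cholinergic motor neurons. Among glutamate-gated cation channel subunits *glr-4* had 3.84 TPM, whereas the NMDA-type subunit *nmr-2* had 0.670 TPM. Among receptors for amines, *ser-3*, an octopamine receptor, had 4.49 TPM, *dop-2*, a D2-like dopamine receptor, had 3.12 TPM, *lgc-50*, a serotonin-gated channel, had 2.78 TPM and *ser-4*, a serotonin receptor, had 2.28 TPM. The muscarinic receptor *gar-3* had 3.66 TPM, and the metabotropic glutamate receptor *mgl-2* had 4.07 TPM. *deg-1* had 2.86 TPM. The leading gene was *lgc-47* at 1.89 TPM in the group of acetylcholine-gated chloride channels and *lgc-35* at 1.84 TPM among channels like the GABA receptors.

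A filter on low counts left 99 of the 118 genes and 15728 of all genes for testing. All 24 G protein-coupled receptors passed it, as did 73 of the 92 channel genes and both genes that are not receptors. Of the 19 that did not pass, 16 are lgc genes, and the others are *acr-6* (0.195 TPM), *acr-10* and *glr-7*. None of the 19 had more than 19 counts in any sample. *lgc-16* had 0 counts in the 4 rescue samples, 4 counts in all in the mutant and 2 counts in all in wild type, so that a difference was not detectable at this depth.

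The genes also shared features that the symbol rule did not use. On the X chromosome lay 40 of the 118, or 33.9%, beside 13.03% of all genes in the table that could be located. Several sat side by side. *lgc-13* to *lgc-18* form a run of neighbours on the same strand of X, with gaps of 212 to 2716 bases, and all but *lgc-13* in this run were too low to test. *acr-2* and *acr-3*, subunits of 1 receptor of cholinergic motor neurons, lie 229 bases apart on X, and their log2 fold changes against wild type were 0.04 and 0.05 in rescue and 0.02 and 0.45 in the mutant. Neither passed the test.

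The question put to the rescue and mutant comparison is which genes the neuronal *raga-1* array alters in animals whose own *raga-1* is deleted. The paper reports that this array is also expressed in the intestine of adults, and *raga-1* in rescue lay far above wild type. None of the 99 genes passed the threshold (edgeR quasi-likelihood test, Benjamini-Hochberg adjusted p under 0.01), where 0.381% of all genes tested did (0.305% higher and 0.0763% lower). DESeq2 also called 0. At an unadjusted p under 0.05 the receptor genes numbered 13, or 13.1% (DESeq2 12), beside 17.1% of all genes tested. Both of these fits estimated the spread over all 12 samples, the uneven wild type samples included. When only rescue and mutant were fitted, 1 of 98 receptor genes passed (*glc-1*, edgeR), beside 3.58% of all genes tested. The log2 fold change was above 0 for 75 of the 99 genes, or 75.8%, beside 49.5% of all genes, and its median was 0.15, beside -0.00 for all genes. In 11 genes every rescue sample was above every mutant sample, and such genes made up 10.6% of all genes tested. In 2 genes every rescue sample was below, beside 7.15% of all genes.

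*glc-1* came nearest to a call. It had 27.5, 22.3, 24.1 and 26.5 CPM in rescue, 19.01, 18.8, 19.9 and 18.7 CPM in the mutant and 15.2, 10.7, 13.9 and 11.5 CPM in wild type. The samples of each group lay wholly above those of the next, with rescue highest and wild type lowest. For rescue against mutant the log2 fold change was 0.40 ± 0.11 (SE) with an adjusted p of 0.0839 (edgeR). It passed when only these 2 groups were fitted (adjusted p = 0.00789, edgeR), but not when the shared collection day was added to that fit as a replicate block (adjusted p = 0.0248, edgeR).

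*mod-5*, which takes serotonin back up, had 3.63, 2.45, 3.05 and 2.5 CPM in rescue, 1.87, 1.90, 1.83 and 2.02 CPM in the mutant and 2.54, 2.05, 2.43 and 1.59 CPM in wild type. All rescue samples were above all mutant samples, while wild type overlapped both. The log2 fold change of rescue against mutant was 0.61 ± 0.17 (SE), with an adjusted p of 0.0960 (edgeR). *glr-5*, a subunit of non-NMDA glutamate channels, had 5.59, 7.27, 6.70 and 6.87 CPM in rescue, 5.16, 4.74, 4.68 and 5.64 CPM in the mutant and 6.16, 5.30, 5.28 and 5.56 CPM in wild type. Rescue replicate 1 lay within the range of the mutant, and the difference of 0.39 ± 0.11 (log2, SE) had an adjusted p of 0.0891 (edgeR). *glr-5* was picked after its values were seen.

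Against wild type more genes differed. The paper reports that *raga-1* mutants are small and develop slowly, and that animals with neuronal rescue share both traits. The part of size or growth in the values against wild type was not tested. In rescue, 8 of the 99 genes passed (7 higher, 1 lower), or 8.08%, which is below the 23.7% of all genes tested that passed (10.2% higher and 13.5% lower). Every rescue sample was above every wild type sample in 23 genes and below in 2, beside 16.1% and 18.3% of all genes. At an unadjusted p under 0.05 the count was 38, or 38.4%, beside 47.7% of all genes. The direction was uneven: the log2 fold change was above 0 for 82 of 99, or 82.8%, beside 54.04% of all genes, and its median was 0.24, beside 0.04 for all genes. In the mutant, 3 of the 99 passed (2 higher, 1 lower), or 3.03%, beside 15.4% of all genes (6.36% higher and 9.01% lower). The split was 4 higher and 1 lower with DESeq2 size factors, 2 and 0 with library size alone and 4 and 0 with DESeq2. Of all genes 15.4%, 12.2% and 16.1% passed in these fits. With collection day as a block, the count in the mutant was 0 (edgeR, 15 at an unadjusted p under 0.05), beside 6.22% of all genes. In rescue it was 4, beside 11.8% of all genes. Under this block wild type replicate 4 (day 8) had no other sample on its day. Replicate 1 of rescue and of the mutant (day 1) had no wild type sample on its day. Comparisons with wild type then rest mainly on days 2, 4 and 6, thus on fewer samples. Without a block, 19 genes in the mutant had an unadjusted p under 0.05, or 19.2%, beside 40.7% of all genes. The groups did not overlap in 11 genes higher and 3 lower in the mutant, beside 13.1% and 15.9% of all genes. There 68 of 99 were above 0, or 68.7%, beside 50.3% of all genes, and the median was 0.13, beside 0.00. The wild type samples are shared between these comparisons. When all 3 groups were tested at once, 5 passed (*glc-1*, *gbb-1*, *lgc-25*, *gar-3* and *ser-3*), or 5.05%, beside 21.1% of all genes. The receptor genes were also thinly counted, with a median of 2.70 CPM over the 99 beside 14.4 CPM over all genes tested.

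**Figure D2:**
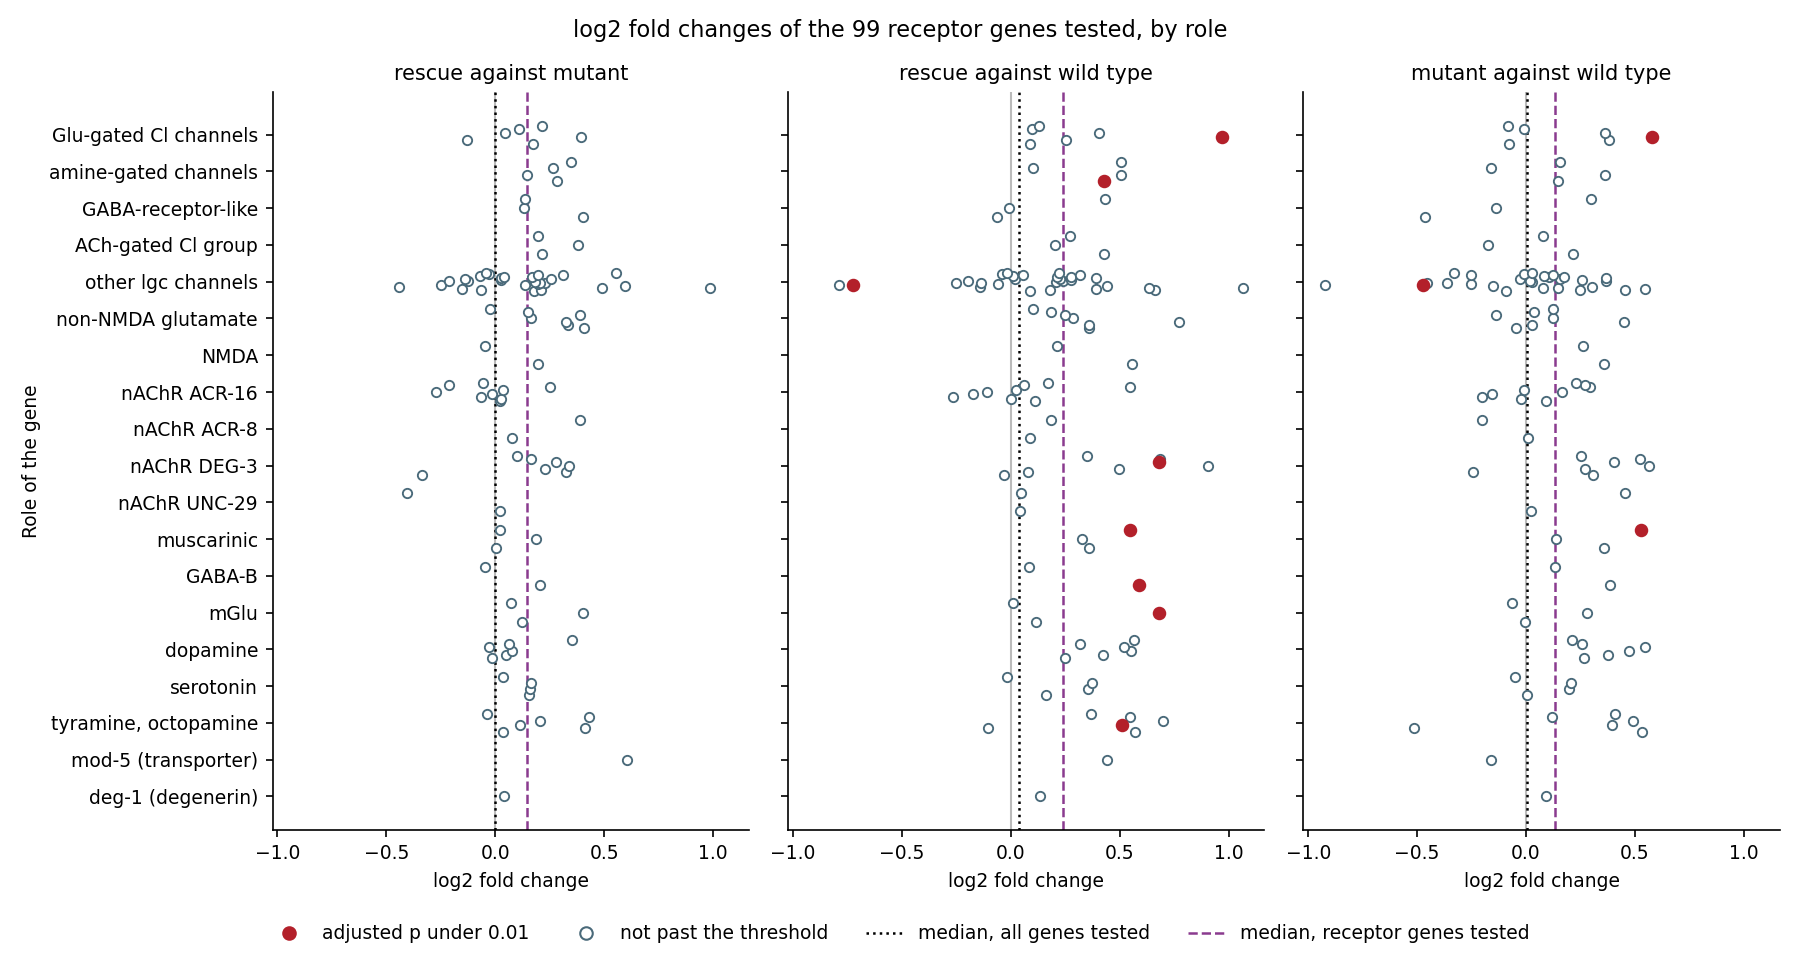
log2 fold change of each of the 99 genes tested (points), by role, in each of 3 comparisons. Red points passed an adjusted p of 0.01, the dotted line is the median of all genes tested and the dashed line that of the receptor genes. The receptor genes lean to the right of 0 in each panel, with 0, 8 and 3 red points from left to right.

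*glc-1* had the largest fold change of those that passed. Its log2 fold change was 0.97 ± 0.11 (SE, adjusted p = 5.1e-05, edgeR) in rescue against wild type and 0.58 ± 0.11 (SE, adjusted p = 0.00235, edgeR) in the mutant against wild type. With collection day as a block the call in rescue was kept (adjusted p = 0.00291) and that in the mutant was lost (adjusted p = 0.03, edgeR). The gene lies on chromosome V from 16219634 to 16221917, plus strand (WBcel235). Of the 6 glutamate-gated chloride channel genes it alone passed, and *avr-14*, another ivermectin target, had log2 fold changes of 0.09 in rescue and -0.08 in the mutant against wild type.

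*lgc-25*, a Cys-loop subunit, was the 1 gene that passed as lower, in both strains. It had 2.25, 2.65, 2.75 and 2.38 CPM in rescue, 2.97, 3.21, 2.84 and 2.87 CPM in the mutant and 4.20, 4.32, 3.72 and 4.31 CPM in wild type. Wild type was above both other groups in every sample, and the mutant above rescue. The log2 fold change was -0.72 ± 0.11 (SE, adjusted p = 0.000319, edgeR) in rescue against wild type and -0.47 ± 0.11 (SE, adjusted p = 0.00616, edgeR) in the mutant against wild type. The call in the mutant was lost with DESeq2 (adjusted p = 0.0118) and without wild type replicate 1, 2 or 4, rescue replicate 4 or any mutant sample. With collection day as a block its adjusted p was 0.0461, the highest over all alternatives, against 0.00704 for the call in rescue (edgeR). The gene lies on the X chromosome from 14158785 to 14161734, minus strand (WBcel235).

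*lgc-50* and *acr-24* were the other channel subunits that passed in rescue. *lgc-50* had 5.35, 6.52, 5.59 and 6.90 CPM in rescue, 4.75, 5.39, 4.82 and 5.07 CPM in the mutant and 4.78, 4.19, 4.54 and 4.62 CPM in wild type. Every rescue sample was above every wild type sample, with a mean difference of 0.43 ± 0.10 on the log2 scale (SE, adjusted p = 0.00697, edgeR). *lgc-50* shares 46 exon bases with *trd-1* on the other strand, whose log2 fold change was -0.25. *acr-24*, a nicotinic subunit of the DEG-3 group, had 2.82, 2.92, 2.75 and 3.10 CPM in rescue, 2.27, 2.55, 2.65 and 2.07 CPM in the mutant and 2.61, 1.74, 1.64 and 1.40 CPM in wild type. Rescue did not overlap with wild type, whose replicate 1 lay well above its other samples, and the log2 fold change was 0.68 ± 0.17 (SE, adjusted p = 0.00839, edgeR). Neither *lgc-50* nor *acr-24* passed in the mutant. In rescue, leaving out 1 sample lost the call of *acr-24* in 11 of 12 cases (all but wild type replicate 1) and that of *lgc-50* in 8 of 12 (wild type 2, 3 and 4, mutant 2, 3 and 4, rescue 2 and 4). Over the 22 alternatives the adjusted p ran up to 0.0583 for *acr-24* and 0.0358 for *lgc-50* (edgeR). With collection day as a block both were lost (adjusted p = 0.0459 for *acr-24* and 0.0155 for *lgc-50*, edgeR). *lgc-50* lies on chromosome III from 7391090 to 7395454, minus strand, and *acr-24* on chromosome IV from 15497563 to 15511065, plus strand (WBcel235).

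**Figure D3:**
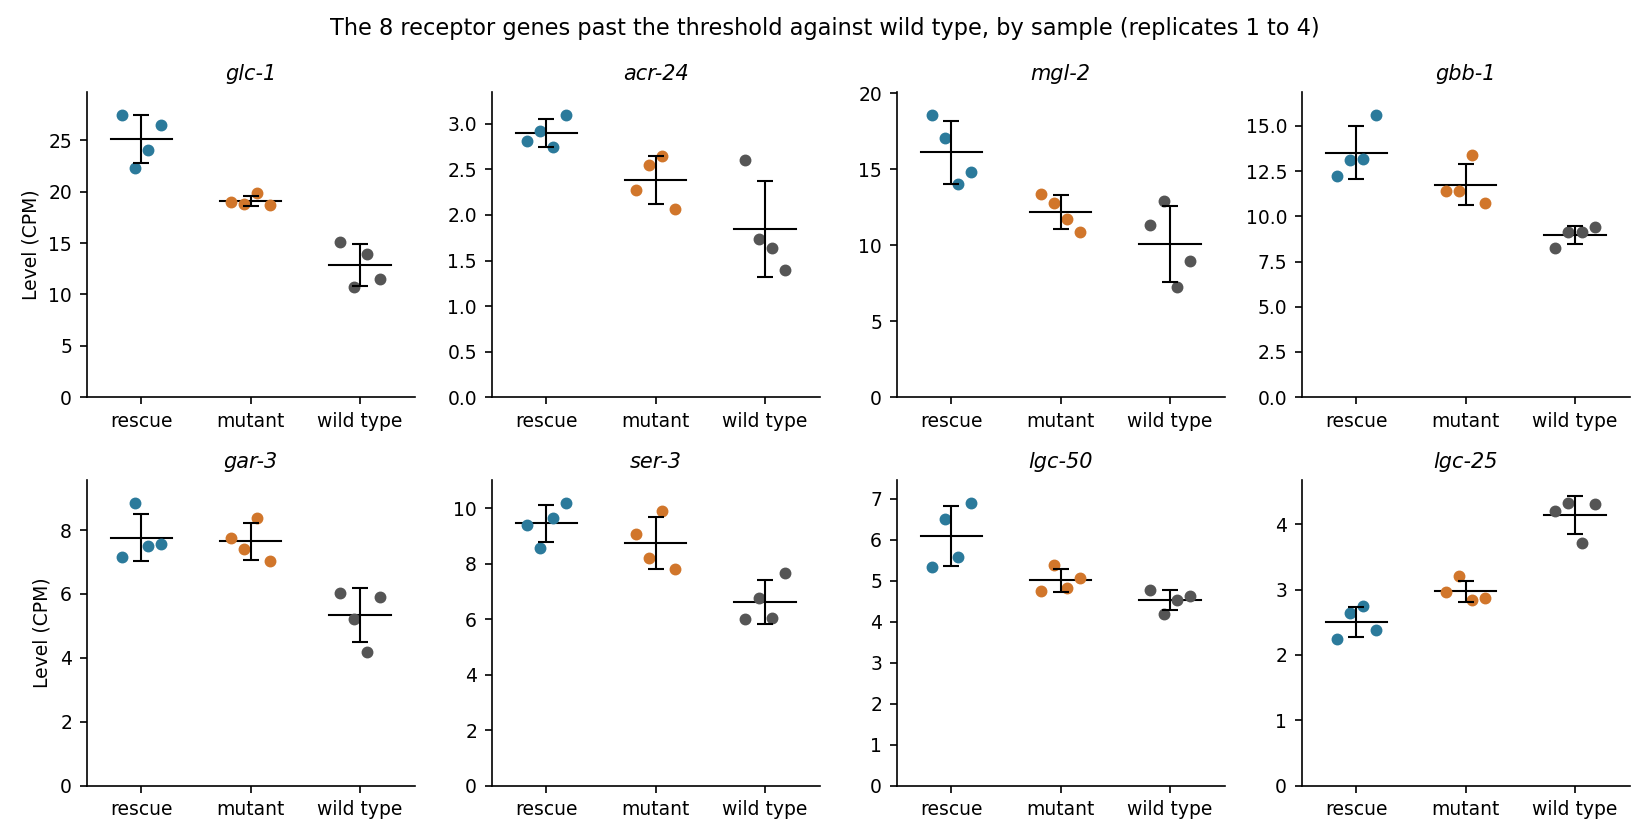
Level (CPM, axes from 0) of the 8 genes past the threshold against wild type, in the 4 samples of each group (points, replicates 1 to 4 from left to right), with the mean (line) and SD (bar). *glc-1* lay between 22.3 and 27.5 CPM in rescue, above every mutant and wild type sample, and *lgc-25* lay lowest in rescue.

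Of the G protein-coupled receptors, 4 of 24 passed in rescue against wild type, or 16.7%, beside 23.7% of all genes. All 4 were higher, and 22 of 24 log2 fold changes were above 0 (54.04% of all genes), with a median of 0.37. In the mutant 1 of 24 passed, or 4.17%, beside 15.4% of all genes, with 20 above 0 (50.3% of all genes) and a median of 0.26. For rescue against mutant 20 of 24 were above 0, with a median of 0.10 and 0 passing. The channel genes had medians of 0.21 in rescue and 0.09 in the mutant, both against wild type. Whether receptors and channels differ in this was not tested. The 4 that passed lie on the X chromosome from 2957935 to 2968192, plus strand (*gbb-1*), on chromosome V from 14564819 to 14579719, minus strand (*gar-3*), and on the minus strand of chromosome I from 10383144 to 10391388 (*mgl-2*) and from 6820517 to 6823093 (*ser-3*) (WBcel235). All 4 are protein-coding genes.

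*gbb-1* encodes the partner of GBB-2 in the GABA-B receptor. It had 12.2, 13.1, 13.2 and 15.6 CPM in rescue, 11.4, 11.4, 13.4 and 10.8 CPM in the mutant and 8.26, 9.13, 9.12 and 9.40 CPM in wild type. Wild type lay below both other groups in every sample. Against wild type *gbb-1* differed by 0.59 ± 0.10 (log2, SE, adjusted p = 0.000678, edgeR) in rescue and 0.38 ± 0.10 (SE, adjusted p = 0.0117, edgeR) in the mutant, and the second passed with DESeq2 (adjusted p = 0.00400). *gbb-2* had log2 fold changes of 0.08 in rescue and 0.13 in the mutant, and neither passed.

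*gar-3* was the 1 G protein-coupled receptor past the threshold in both strains. This muscarinic acetylcholine receptor of neurons and pharyngeal muscle had 7.14, 8.85, 7.50 and 7.56 CPM in rescue, 7.76, 7.40, 8.39 and 7.05 CPM in the mutant and 6.02, 5.21, 4.19 and 5.91 CPM in wild type. Wild type was below both other groups in every sample, and rescue and mutant overlapped almost fully. Against wild type *gar-3* was higher by 0.55 ± 0.12 (log2, SE, adjusted p = 0.00444, edgeR) in rescue and 0.53 ± 0.12 (SE, adjusted p = 0.00803, edgeR) in the mutant, and 0.02 ± 0.12 (SE) for rescue against mutant. The call in rescue was lost without wild type replicate 2 or 3 or rescue replicate 2, 3 or 4 (adjusted p up to 0.0169 over all alternatives), and that in the mutant without any sample but wild type replicate 1 or rescue replicate 2 (up to 0.024, edgeR). With collection day as a block both were lost (adjusted p = 0.0113 in rescue and 0.0179 in the mutant, edgeR). The other muscarinic receptors, *gar-1* and *gar-2*, had positive values that did not pass, at 0.36 and 0.33 in rescue and 0.36 and 0.14 in the mutant.

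*mgl-2*, a metabotropic glutamate receptor, had 18.6, 17.02, 14.03 and 14.8 CPM in rescue, 13.4, 12.8, 11.7 and 10.9 CPM in the mutant and 11.3, 12.9, 7.24 and 8.94 CPM in wild type. Every rescue sample was above every sample of the other groups, which overlapped each other. The log2 fold change was 0.68 ± 0.16 (SE, adjusted p = 0.00642, edgeR) in rescue and 0.28 ± 0.16 (SE, adjusted p = 0.225, edgeR) in the mutant, both against wild type. *mgl-2* shares 554 exon bases with *maf-1* on the same strand, whose own log2 fold changes were 1.01 in rescue and 0.51 in the mutant, so the counts of these neighbours are not fully separate. The call in rescue was lost without wild type replicate 3 or 4, mutant replicate 2 or rescue replicate 1, 2 or 4, and with collection day as a block (adjusted p = 0.0298, the highest over all alternatives, edgeR). *mgl-1* and *mgl-3* had 0.12 and 0.01 in rescue, which did not pass.

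*ser-3* had 9.39, 8.57, 9.64 and 10.2 CPM in rescue, 9.06, 8.20, 9.88 and 7.80 CPM in the mutant and 6.02, 6.77, 6.03 and 7.66 CPM in wild type. All samples of rescue and mutant were above all of wild type, by the least in mutant replicate 4. Against wild type *ser-3* was higher by 0.51 ± 0.11 (log2, SE, adjusted p = 0.00317, edgeR) in rescue and 0.40 ± 0.11 (SE, adjusted p = 0.0172, edgeR) in the mutant, which passed with DESeq2 (adjusted p = 0.00796). The call in rescue was lost without wild type replicate 3 or rescue replicate 4 (adjusted p up to 0.0231 over all alternatives, edgeR). Of the 6 receptors for tyramine and octopamine, 5 had values above 0 in each strain against wild type, with medians of 0.53 in rescue and 0.40 in the mutant. *octr-1*, an octopamine receptor, had 0.57 in rescue and 0.53 in the mutant, and *tyra-3*, a tyramine receptor, had 0.37 and 0.41. Neither of these passed at 0.01. *ser-2*, another tyramine receptor, had -0.10 in rescue and -0.52 in the mutant.

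The 6 dopamine receptor genes all had log2 fold changes above 0 against wild type in both strains, with 0 passing in either. In rescue they ran between 0.25 and 0.57 with a median of 0.47. Of the 6, 4 had an unadjusted p under 0.05, beside 47.7% of all genes tested. In the mutant they ran between 0.21 and 0.55 with a median of 0.32. Here 3 of the 6 had an unadjusted p under 0.05, beside 40.7% of all genes tested. *dop-3*, the D2-like receptor that slows locomotion, had 2.98, 2.96, 3.82 and 3.77 CPM in rescue, 2.80, 3.38, 3.47 and 3.20 CPM in the mutant and 1.96, 2.72, 1.88 and 2.64 CPM in wild type. Rescue and mutant lay above wild type in every sample, and the adjusted p was 0.0155 in rescue and 0.0408 in the mutant (edgeR). *dop-1*, a D1-like receptor, had 0.25 in rescue and 0.27 in the mutant.

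The 4 serotonin receptors coupled to G proteins had medians of 0.26 in rescue and 0.10 in the mutant against wild type. *ser-4* had log2 fold changes of 0.35 in rescue and 0.20 in the mutant, and *mod-1*, a serotonin-gated chloride channel, had 0.51 in rescue (adjusted p = 0.0264, edgeR) and 0.16 in the mutant. *lgc-55*, a tyramine-gated chloride channel, had 0.10 in rescue and -0.16 in the mutant. None of these passed.

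Among nicotinic subunits, those of the DEG-3 group had 6 of 7 values above 0 in each strain against wild type, with medians of 0.50 in rescue and 0.31 in the mutant. *deg-3* had 0.35 in rescue (adjusted p = 0.0120, edgeR) and 0.25 in the mutant, and *acr-23*, the betaine receptor that monepantel targets, had 0.90 ± 0.33 (SE) in rescue (adjusted p = 0.0495, edgeR) and 0.56 ± 0.35 (SE) in the mutant. The 9 genes tested of the ACR-16 group had medians of 0.02 in rescue and 0.09 in the mutant, and *acr-16* itself had -0.17 and -0.16. *acr-12*, a subunit of motor neuron receptors, had 0.09 in rescue and 0.01 in the mutant, and *acr-8* had 0.19 and -0.20. The groups of nicotinic subunits were not tested against each other.

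The 7 non-NMDA subunits of glutamate-gated cation channels tested were all above 0 in rescue against wild type, with a median of 0.29, whereas 5 of 7 were above 0 in the mutant, with a median of 0.03, and none passed. *glr-1*, the AMPA-type subunit of the command interneurons, had 3.63, 2.92, 3.01 and 3.77 CPM in rescue, 2.52, 2.47, 2.56 and 2.54 CPM in the mutant and 2.97, 2.05, 3.09 and 2.33 CPM in wild type. Rescue was above the mutant in every sample, and wild type overlapped with both. The log2 fold change was 0.41 ± 0.14 (SE, adjusted p = 0.192, edgeR) for rescue against mutant and 0.36 ± 0.15 (SE, adjusted p = 0.0711, edgeR) for rescue against wild type. *nmr-1*, the other NMDA-type subunit, had 0.56 in rescue and 0.36 in the mutant, both against wild type.

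For some of the most abundant genes the wild type samples fell into pairs far apart, and the comparison with wild type turned on which pair was kept. These genes were picked for this after their values were seen. *lgc-22* had 97.7, 80.6, 81.9 and 91.4 CPM in rescue, 58.7, 56.2, 73.8 and 44.3 CPM in the mutant and 130.8, 18.9, 86.8 and 24.1 CPM in wild type. Wild type replicates 1 and 3 lay above most samples of the other strains, and replicates 2 and 4 below all of them. The ratio of the highest to the lowest sample was 1.21 in rescue, 1.67 in the mutant and 6.94 in wild type. Every rescue sample was above every mutant sample, but the difference of 0.59 ± 0.48 (log2, SE) did not pass (adjusted p = 0.554, edgeR), with adjusted p of 0.0154 without wild type replicates 1 and 3 and 0.0359 without replicates 2 and 4, which enter the shared estimate of spread.

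Over all 4 wild type samples neither strain passed for *lgc-22*, with log2 fold changes of 0.44 in rescue and -0.15 in the mutant. Without wild type replicates 1 and 3 they were 2.02 (adjusted p = 1.38e-05) in rescue and 1.43 (adjusted p = 0.000251) in the mutant, whereas without replicates 2 and 4 they were -0.30 (adjusted p = 0.203) and -0.89 (adjusted p = 0.00242, all edgeR). *lgc-27* behaved alike, with 49.9, 34.5, 36.5 and 44.8 CPM in rescue, 31.5, 36.2, 42.7 and 31.3 CPM in the mutant and 77.2, 16.4, 63.8 and 25.7 CPM in wild type. Wild type replicates 1 and 3 were above every other sample, and replicates 2 and 4 below. Its log2 fold change in rescue was 0.97 (adjusted p = 0.00240) without wild type replicates 1 and 3 and -0.76 (adjusted p = 0.00250, both edgeR) without replicates 2 and 4.

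*avr-15*, a glutamate-gated chloride channel subunit that acts in the pharynx, split the opposite way. It had 18.7, 16.2, 18.1 and 13.9 CPM in rescue, 20.9, 17.1, 15.5 and 19.6 CPM in the mutant and 10.4, 18.98, 9.70 and 16.8 CPM in wild type. Here wild type replicates 1 and 3 lay below all samples of the other strains, and replicates 2 and 4 among them. It passed in both strains without replicates 2 and 4 (log2 fold change 0.74 in rescue and 0.87 in the mutant), with adjusted p of 0.00329 and 0.00131 (edgeR), and in neither without replicates 1 and 3 (-0.11 and 0.03).

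Of the 99 genes, 37 had both wild type replicates 1 and 3 above both 2 and 4, and 21 had them below, or 37.4% and 21.2%, beside 31.6% and 31.7% of all genes tested. The summed level of 8 epidermal marker genes, several of them cuticle collagens, was 5185, 3411, 3230 and 4001 CPM in rescue, 5482, 4401, 4073 and 3848 CPM in the mutant and 6526, 3463, 6351 and 3841 CPM in wild type. It parted the wild type samples in the same way as *lgc-22* and *lgc-27*. The summed pharyngeal muscle markers were at 749.8, 957.3, 789.2 and 1042 CPM in wild type replicates 1 to 4. Those of intestine were at 2048, 2339, 1994 and 2548 CPM. Both sums parted these samples the opposite way, as *avr-15* did, and so, by less, did the germ line sum. The neuronal and sperm sums parted them as the epidermal sum did, by less. The part of these markers in these values was not tested.

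**Figure D4:**
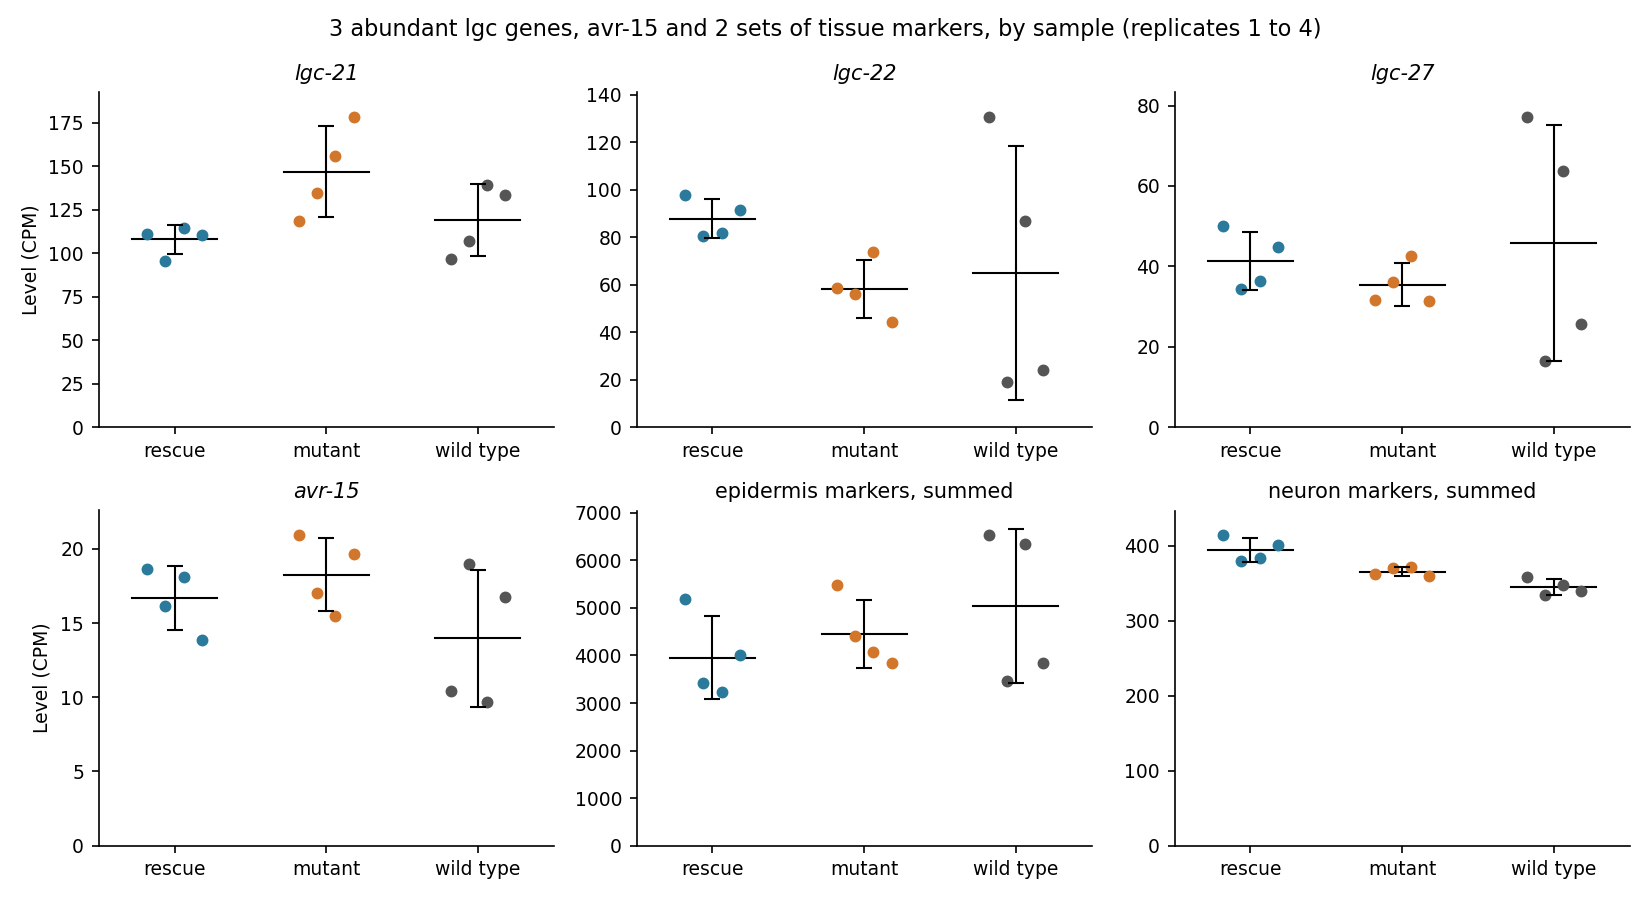
Level (CPM, axes from 0) of *lgc-21*, *lgc-22*, *lgc-27* and *avr-15*, and the summed level of 8 epidermal and 12 neuronal marker genes, in the 4 samples of each group (points, replicates 1 to 4 from left to right), with the mean (line) and SD (bar). In wild type *lgc-22* was at 130.8 and 86.8 CPM in replicates 1 and 3 but at 18.9 and 24.1 CPM in replicates 2 and 4.

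*lgc-21*, the most abundant of all, was steadier, at 110.8, 95.6, 114.7 and 110.4 CPM in rescue, 118.2, 134.4, 155.9 and 178.3 CPM in the mutant and 96.4, 107.0, 138.9 and 133.6 CPM in wild type. Every rescue sample was below every mutant sample, but the log2 fold change of -0.44 ± 0.14 (SE) did not pass (adjusted p = 0.139, edgeR). *lgc-34*, another Cys-loop subunit, varied little within groups, with 36.2, 35.8, 33.1 and 32.6 CPM in rescue, 36.1, 38.1, 40.1 and 37.2 CPM in the mutant and 34.1, 33.3, 34.5 and 34 CPM in wild type. Every mutant sample was above every wild type sample, and this difference passed at an adjusted p under 0.05 but not under 0.01 (edgeR). *acr-17*, a nicotinic subunit, varied widely within each group, at 5.06, 0.8292, 1.01 and 1.02 CPM in rescue, 1.46, 5.96, 0.193 and 1.79 CPM in the mutant and 0.0725, 1.74, 4.89 and 0.855 CPM in wild type. Each group held 1 sample near 5 CPM, and none of the comparisons passed.

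Summed over all 118 genes, the level was 719.2 CPM in rescue, 689.5 CPM in the mutant and 641.4 CPM in wild type, with overlapping groups, and *lgc-21*, *lgc-22* and *lgc-27* made up between 26.2% and 41.6% of it. Without these 3 the groups no longer overlapped, at 472.2 to 497.4 CPM in rescue, 434.5 to 458.1 CPM in the mutant and 401.4 to 426.8 CPM in wild type. Leaving them out was a choice made after their values were seen, and the sum got no test.

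The neuronal marker genes, summed, stood in the same order. The summed level of 12 of them, which include the synaptic vesicle genes *rab-3* and *snb-1*, was between 379.9 and 414 CPM in rescue, between 359.2 and 371.4 CPM in the mutant and between 334.4 and 358.1 CPM in wild type. Against wild type 12 of 12 were above 0 in rescue (54.04% of all genes), with a median log2 fold change of 0.24. Of these 3 passed (*unc-64*, *unc-104* and *ric-4*), where 10.2% of all genes passed as higher. In the mutant 9 of 12 were above 0 (50.3% of all genes), with 0 passing and a median of 0.06. For rescue against mutant 11 of 12 were above 0 (49.5% of all genes), with a median of 0.16, and *snb-1* was at -0.03. Germ line markers went the other way. Against wild type 7 of 8 were below 0 in rescue, with 5 passing, and 5 of 8 in the mutant, with 2 passing, where 13.5% and 9.01% of all genes passed as lower. Their summed levels were 1718 to 1897 CPM in rescue, 1900 to 1988 CPM in the mutant and 2230 to 2386 CPM in wild type. All 8 sperm markers were below 0 against wild type in both strains, with 5 passing in rescue and 3 in the mutant, and their summed levels were 225.1 to 270.9 CPM in rescue, 270.2 to 346.4 CPM in the mutant and 460.5 to 522.9 CPM in wild type. The part of these markers in the values of the receptor genes was not tested.

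Over the 2193 X-linked genes tested the median log2 fold change was 0.20 in rescue and 0.10 in the mutant, and the 32 X-linked receptor genes tested had 0.20 and 0.19. For the receptor genes of chromosomes I, II, III, IV and V, 9, 12, 12, 12 and 22 were tested. Their medians against wild type were 0.41, 0.04, 0.36, 0.24 and 0.24 in rescue. In the mutant they were 0.21, 0.06, 0.14, 0.05 and 0.10.

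Genes that work with these receptors were read from lists. A list of 20 receptor subunits fell outside the symbol rule by name, such as the *unc* and *lev* nicotinic subunits and the GABA-A type receptors. Of these 1, or 5%, passed against wild type in each strain, beside 23.7% of all genes in rescue and 15.4% in the mutant. The 1 that passed was *pbo-5*, a subunit of a proton-gated channel of muscle. It was higher by 0.53 ± 0.08 (log2, SE, adjusted p = 0.000377, edgeR) in rescue and 0.38 ± 0.08 (SE, adjusted p = 0.00447, edgeR) in the mutant. The medians of these 20 genes were 0.23 in rescue and 0.15 in the mutant.

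Of 17 genes tested for receptor assembly and clustering, 12 were above 0 in rescue and 10 in the mutant against wild type. Of all genes tested 54.04% and 50.3% were. In rescue 3 passed as higher and 2 as lower, or 29.4%, beside 23.7% of all genes. In the mutant 2 passed as higher and 2 as lower, or 23.5%, beside 15.4% of all genes. *lev-10*, which clusters acetylcholine receptors at the neuromuscular junction, and *nlg-1*, neuroligin, rose in both strains, by 0.31 and 0.33 in rescue and by 0.27 and 0.35 in the mutant on the log2 scale. *molo-1*, an auxiliary subunit of levamisole receptors, passed in rescue at 0.59. *emc-6* and *nra-2*, which act on receptor assembly in the endoplasmic reticulum, had -0.44 and -0.22 in rescue and -0.37 and -0.23 in the mutant, and all of these passed.

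Of 27 genes for transmitter synthesis and transport, 26 were above 0 in rescue and 22 in the mutant against wild type (54.04% and 50.3% of all genes). Those that passed were 5 in rescue and 2 in the mutant, all higher, where 10.2% and 6.36% of all genes passed as higher. In both strains these included the glutamate transporter genes *glt-3* and *glt-5*, the second at 1.01 ± 0.13 in rescue and 1.25 ± 0.13 in the mutant (log2, SE). *glt-7*, of the same family, and *unc-17*, the vesicular acetylcholine transporter, passed in rescue at 0.71 and 0.49. *unc-25*, the glutamate decarboxylase that makes GABA, was the 1 gene of these lists that passed for rescue against mutant, where it averaged 34.6 CPM in rescue, 22.96 CPM in the mutant and 22.9 CPM in wild type. The difference from the mutant was 0.59 ± 0.05 (log2, SE, adjusted p = 0.000421, edgeR).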

How the data were processed

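RNA-Seq of 12 samples was used, 4 each of rescue, mutant and wild type, grouped by their labels. Libraries came from a stranded mRNA kit. The values the authors deposited are expected counts from Salmon, summed to genes with tximport (build WBcel235). A second table, the same counts over size factors, was not used. Tools named in the submitters' processing notes are CASAVA, Salmon and DESeq2, with versions and Salmon's strand setting not given in the sources used here. All 12 value columns were matched to samples, and 0 were left over.

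Counts were rounded, filtered with filterByExpr, scaled by TMM and fitted with edgeR 4.0.16 (quasi-likelihood, R 4.3.3) over all 12 samples with group as the only term. Adjustment (Benjamini-Hochberg) ran over 15728 genes, with a threshold of 0.01. CPM are TMM-scaled. TPM were computed from merged exon lengths of Ensembl release 115. Floors of 3 counts cover counting error only.

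The members and lists were chosen with earlier results of these data known. Named were members past the threshold, a list of 21 textbook members and the member with the highest TPM in each role class, and members given beside a relative, or for a high level or wide spread, were picked after their values were seen. The gene lists hold no p of their own.

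Samples of rescue and mutant with the same number were collected on the same day (labels), so these numbers pair. The correlations of their deviations were -0.0185, 0.148, -0.143 and 0.0101, and with the replicate block 0 receptor genes passed for rescue against mutant in the fit of all 12 samples, as without it. Wild type samples with the same number were collected on other days. Wild type was collected on days 2, 4, 6 and 8, and rescue and mutant on days 1, 2, 4 and 6.

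The alternatives were DESeq2 1.42.0, DESeq2 size factors within edgeR, library size alone, other filters, a threshold of 0.05, replicate and collection day blocks, fits of only the groups compared, and each sample or wild type pair left out. The script was checked on simulated counts. No sequences were read.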

Additional observations from a re-analysis of the deposited data

Results flagged for a closer look

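In each group of 4 samples, the highest and lowest level of each of the 99 genes tested was compared with the others by Dixon's test at the 95% level. Of 297 groups 9 held a sample that stood apart, where chance alone gives about 1 in 20. In rescue, *acr-17* had 5.06 CPM in replicate 1, against 0.8292 to 1.02 CPM in the others, and *lgc-12* had 1.06 CPM in the same replicate, against 0.770 to 0.790 CPM. *glr-4* had 8.53 CPM in rescue replicate 2, below the 11.7 to 12.2 CPM of the others. In rescue replicate 4, *acr-14* had 0.512 CPM (others 0.286 to 0.316 CPM), *lgc-49* had 1.11 CPM (others 0.817 to 0.837 CPM) and *lgc-40* had 1.87 CPM (others 2.29 to 2.34 CPM). In the mutant, *dop-5* had 3.37 CPM in replicate 1 (others 3.80 to 3.85 CPM) and *nmr-2* had 2.41 CPM in replicate 3 (others 1.65 to 1.74 CPM). In wild type, *lgc-37* had 1.07 CPM in replicate 2 (others 0.861 to 0.894 CPM).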

How the results depend on the processing

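In rescue against wild type, *glc-1*, *gbb-1* and *lgc-25* passed under all 22 alternatives, whereas *ser-3* lost its call under 3, *gar-3* under 8, *mgl-2* under 9, *lgc-50* under 13 and *acr-24* under 15. In the mutant against wild type *glc-1* lost it under 1 (collection day as a block), *gar-3* under 14 and *lgc-25* under 16. A threshold of 0.05 gave 22 genes in rescue against wild type, 13 in the mutant against wild type and 18 in the 3-group test. Of all genes tested 38.8%, 29.1% and 37.2% passed it. DESeq2 size factors in edgeR, and a filter of 10 counts in every sample, each gave 5 in the mutant against wild type. These fits called 15.4% and 16.7% of all genes. Fitting only the groups compared gave 1 (*glc-1*) for rescue against mutant, 4 for rescue against wild type and 1 for the mutant against wild type. All genes passed there at 3.58%, 16.1% and 9.06%. With library size alone the median log2 fold change of all genes was 0.137 in rescue and 0.0355 in the mutant against wild type, with 0.0625 between rescue and mutant (rescue over mutant), and that of the receptor genes was 0.341, 0.164 and 0.211.

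The numbers of wild type samples do not pair them with the other strains (correlations of same-numbered deviations between -0.159 and 0.326 with rescue and between -0.177 and 0.32 with the mutant). With the replicate block the counts were 5 for rescue and 1 for the mutant against wild type, beside 20.6% and 12.5% of all genes. With collection day as a block they were 4 and 0 (edgeR, 15 at an unadjusted p under 0.05), and 1 in the 3-group test. Wild type replicate 4 was alone on its day in this fit. Of all genes 11.8%, 6.22% and 8.04% passed with this block. Between rescue and mutant the replicate block changed no call in the fit of all 12 samples. In the fit of these 2 groups alone it lost the 1 call (*glc-1*), leaving 0, an alternative added after the data were seen.

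Leaving out 1 sample gave 3 to 9 genes in rescue against wild type (3 without rescue replicate 4, 4 without wild type replicate 3, 5 without wild type replicate 2 or 4, mutant replicate 2 or rescue replicate 2), 1 to 3 in the mutant against wild type (1 without wild type replicate 2 or 4, or without any 1 mutant sample) and 3 to 5 in the 3-group test (3 without mutant replicate 1 or 2, rescue replicate 1, 3 or 4 or wild type replicate 3). Over these fits 17.1% to 25.3% of all genes passed in rescue against wild type and 9.05% to 16.4% in the mutant against wild type. In the 3-group test 13.7% to 21.8% did. Counts of 0 for rescue against mutant held in each. Without wild type replicates 1 and 3, 102 receptor genes were tested. The counts were 1 for rescue against mutant (*glc-1*), 15 for rescue against wild type and 9 in the 3-group test. Of all genes tested 3.55%, 29.2% and 24.9% passed there. Without wild type replicates 2 and 4 they were 13 for rescue and 11 for the mutant against wild type, and 11 in the 3-group test. Of all genes 26.7%, 26.8% and 29.2% passed there. The causes were not tested.

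Of 6577 single values, 12 changed sign where the value was past the threshold under one of the settings or, over all samples, larger than its standard error. Without wild type replicates 1 and 3 these were, in rescue against wild type, *lgc-27* (0.97), *avr-15* (-0.11), *lgc-13* (-0.072) and *lgc-30* (-0.054), and in the mutant *lgc-22* (1.43), *lgc-43* (0.14) and *acr-8* (0.10). Without replicates 2 and 4 they were *acr-8* (-0.071) and *lgc-32* (-0.00218) in rescue, and *acr-18* (0.17) and *ser-5* (-0.086) in the mutant. Leaving out 1 sample, *acr-18* ran between -0.375 and 0.00115 in the mutant, the second without wild type replicate 2. Exons shared with a gene on the other strand (108 bases of *lgc-27* with *fut-6*, 213 of *gbb-2* with ZK180.7, 33 of *dop-3* with *svh-2*, 40 of *avr-15* with *gut-2*) limit those genes if counting ignored strand. Depth limits the 85 genes tested that averaged under 10 CPM and the 19 not tested.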
